A study of Homo sapiens with 12 samples.

Results

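The 10 genes described here encode transcription factors that set the identity of myeloid blood cells: the C/EBP factors CEBPA, CEBPB, CEBPD and CEBPE, the ETS factor PU.1 (gene SPI1) with its partner IRF8, and KLF4, GFI1, RUNX1 and MYB. They form a functional group chosen by name, with earlier results of these data known. They were matched by symbol among the 61906 genes of each count table. All 10 were found in both tables, and all 10 passed the filter on low counts in both experiments. RNA was measured in MOLM-14, an established human acute myeloid leukemia line that carries a KMT2A fusion and an internal tandem duplication of FLT3. In the first experiment, cells received by lentivirus either a control shRNA (shControl) or 1 shRNA against the RNA helicase gene DDX5 (shDDX5), and RNA was taken after 96 h. In the second, cells were held for 6 h in 0.1% DMSO, the solvent control, or in RX-5902 at 100 nM, a compound directed at the phosphorylated form of DDX5. There were 3 libraries in each of the 4 groups, labelled as biological replicates. All libraries come from 1 cell line, the labels name 1 shRNA against DDX5 and no rescue, and the experiments have separate controls, so agent, time and experiment cannot be told apart when they are compared.

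C/EBP alpha and PU.1 are the central regulators of the granulocyte and monocyte lineages: PU.1 opens and activates myeloid genes, and C/EBP alpha takes progenitors out of the cell cycle and towards granulocytes. C/EBP beta and C/EBP delta bind the same DNA motif and are known from inducible and stress myelopoiesis, while C/EBP epsilon acts late in granulocytes. IRF8, which binds DNA together with PU.1, and KLF4 are known for the monocyte branch, GFI1 is a repressor that favours granulocytes over monocytes, and RUNX1 and MYB maintain progenitors, MYB being a required factor in leukemias with KMT2A fusions.

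The targeted gene was checked first. Levels are given as CPM, counts scaled to a common library size with TMM factors. The factors were computed within each experiment, so levels in the 2 experiments were not scaled together. With shControl, DDX5 gave 755, 718 and 729.5 CPM, and with shDDX5 it gave 159, 164 and 161 CPM. The log2 fold change was -2.19 (SE 0.08, edgeR adjusted p = 3.44e-06). With RX-5902, DDX5 was at 1108, 1067 and 1023 CPM against 854, 868 and 863 CPM in DMSO (log2 0.31, SE 0.04, edgeR adjusted p = 1.47e-08). Total counts ran from 17603589 to 19674098 in the knockdown libraries and from 20264250 to 20367575 in the RX-5902 experiment. The library shDDX5 replicate 1 stood apart from its group: the SD over genes of its log2 difference from the other shDDX5 libraries was 0.409, against 0.121 to 0.244 for the other 11 libraries. Mitochondrial genes took 10.3% of its counts, against 5.19 to 8.09% in the others, and it had 22779 genes with counts, against 23710 to 23982 in the other libraries of the knockdown experiment. The part of these values in the results was not tested. In that library genes with under 2000 exonic bases had a median of 0.19 (log2) above the rest of the group, so the knockdown result of each factor with a short gene is given with and without it. Among the marker genes, CEACAM8 and FCGR3B of neutrophils, HBB and HBA1 of red cells and MS4A1 of B cells had no counts in any of the 12 libraries. The summed level of 6 monocyte markers was 3430 to 3795 CPM in shControl and 12762 to 14142 CPM in shDDX5, most of it LYZ, and 456 to 483 CPM in DMSO against 367 to 378 CPM with RX-5902. With RX-5902 the sum followed LYZ, at 377 CPM in DMSO and 259 CPM with the compound. CSF1R went the other way, from 23.2 to 31.6 CPM, as did ITGAM, from 6.37 to 15.3, and CD36, from 7.70 to 13.3. FCGR1A was at 54.5 and 55.3 CPM, and CD14 was near 0. In the knockdown CD14 fell from 6.92 to 2.37 CPM, while the other monocyte markers rose. The part of these markers in the changes of the factors was not tested. Of the 5 markers of myeloid blasts, PTPRC, CD33, FLT3 and MPO were expressed and ANPEP (CD13) was near 0, at a mean of at most 0.0379 CPM in any group. In bulk RNA, fewer cells of a type and less RNA per cell cannot be told apart.

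In shDDX5 cells more of the myeloid factors rose than fell, some of them by little. Of the 10 factors, 7 rose (CEBPB, CEBPD, CEBPE, SPI1, IRF8, KLF4 and MYB), RUNX1 fell, and CEBPA and GFI1 did not pass the test. The calls, at an adjusted p under 0.05 from edgeR's quasi-likelihood test with Benjamini-Hochberg adjustment over all genes tested, cover 56.7% of 14463 genes in this experiment, 28.4% higher and 28.3% lower. The median log2 change was 0.43 over the 10 factors and -0.001 over all genes tested. The median absolute log2 change over all genes tested was 0.498. The rises of SPI1 (0.37), KLF4 (0.44) and MYB (0.41) were below it, and those of CEBPB, CEBPD, CEBPE and IRF8 were above it. After 6 h of RX-5902 the direction was mostly downward: 7 of the 10 fell (CEBPA, CEBPD, CEBPE, IRF8, GFI1, RUNX1 and MYB), CEBPB and SPI1 rose, and KLF4 did not pass. There, 64.1% of 13941 genes were called, 32.2% higher and 31.9% lower, and the median log2 change was -0.19 over the 10 factors and 0.01 over all genes. The median absolute log2 change over all genes was 0.314 with RX-5902. The falls of CEBPA, GFI1 and RUNX1 were smaller than this, and the other called changes were larger. With calls this common, a call alone sets no factor apart from other genes, and the description below turns on sizes and directions.

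Between the experiments, 4 factors rose with the knockdown and fell with RX-5902 (CEBPD, CEBPE, IRF8 and MYB), while CEBPB and SPI1 rose in both and RUNX1 fell in both. Of 13233 genes tested in both experiments, 7.10% rose in the knockdown and fell with RX-5902, 10.4% rose in both and 12.8% fell in both. A test of the difference between the changes, over all 12 libraries, called 6 of the 10 factors: the knockdown change lay above the RX-5902 change for CEBPA, CEBPD, CEBPE, IRF8 and MYB and below it for RUNX1. In that test 52.7% of 15386 genes were called, 24.1% higher and 28.6% lower. The plot of CPM by library shows the values behind these calls, and the plot of log2 changes sets the experiments side by side.

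**Figure D1:**
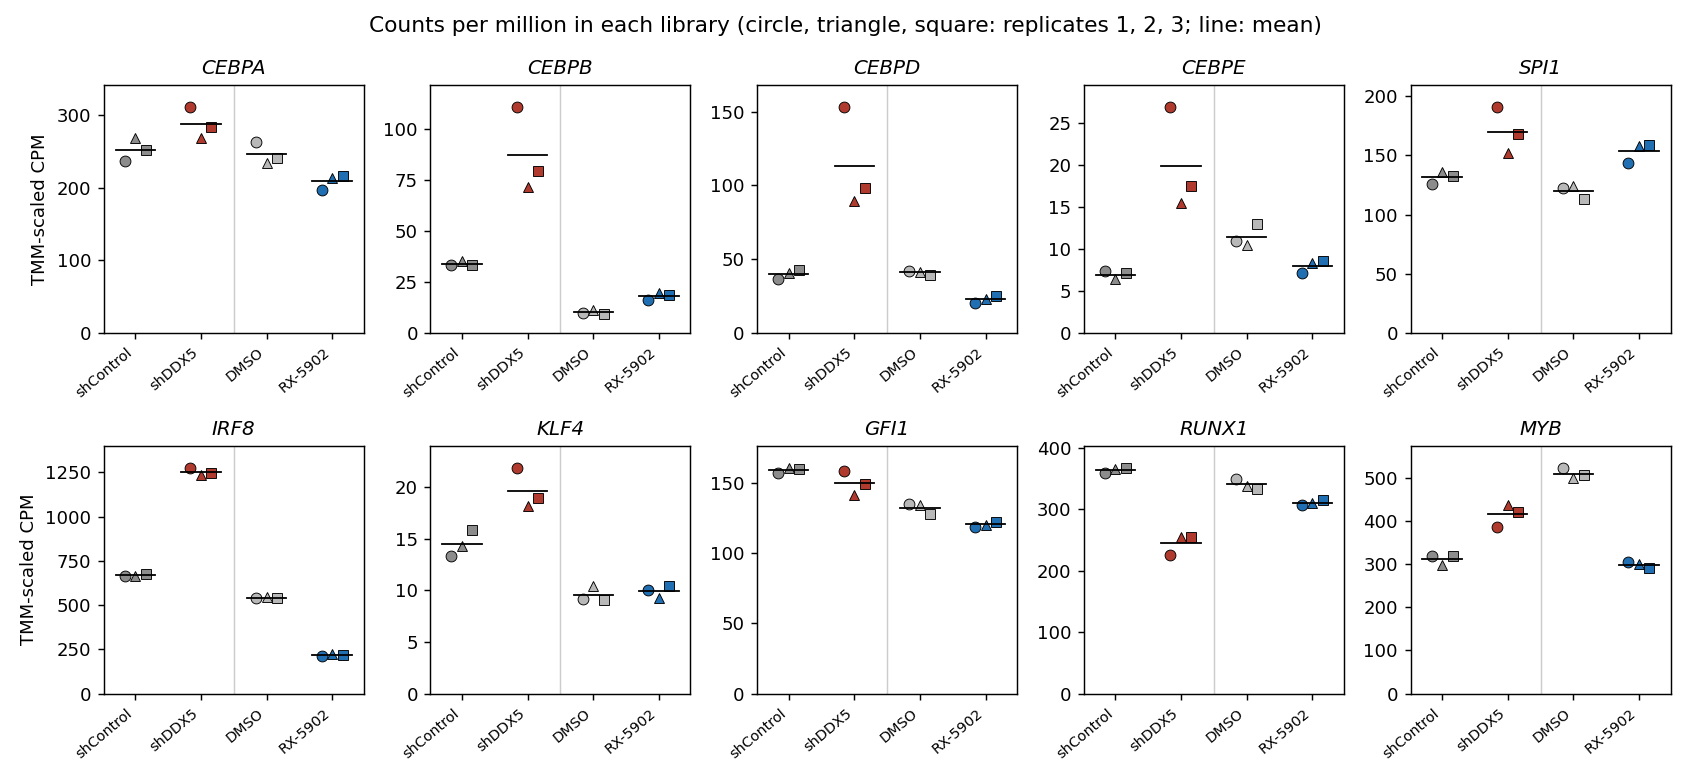
TMM-scaled CPM (vertical axes, each starting at 0) of the 10 factors in the 12 libraries; circle, triangle and square are replicates 1, 2 and 3, and lines are group means. IRF8 separates all 4 groups, from 209 to 1273 CPM, and for CEBPB, CEBPD and CEBPE shDDX5 replicate 1 lies above the other 2 shDDX5 libraries.

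**Figure D2:**
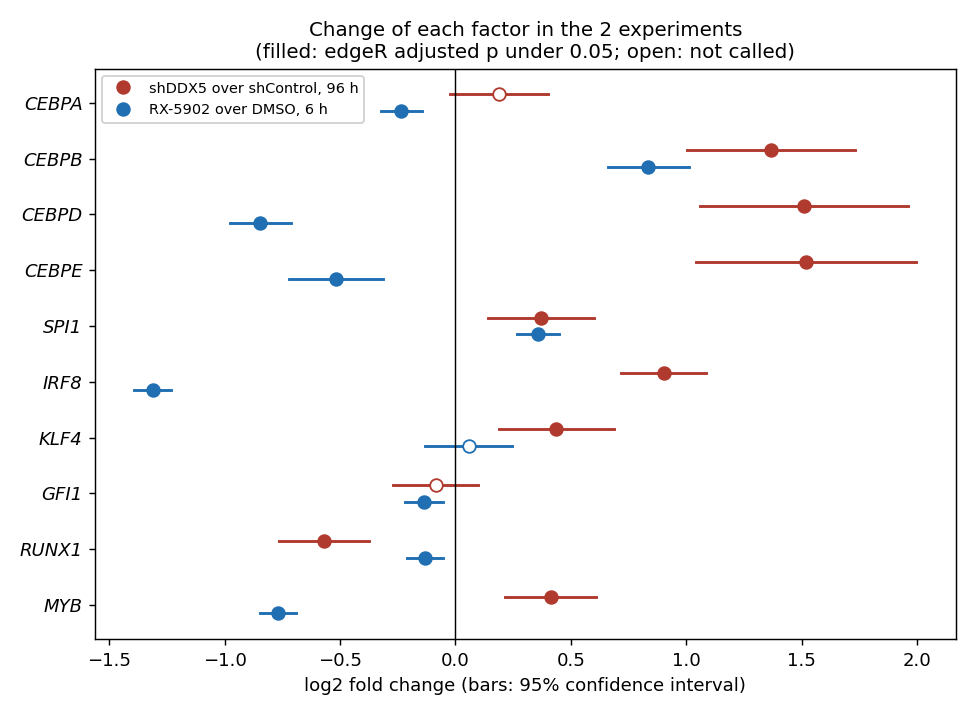
Log2 fold change with its 95% confidence interval (horizontal axis) of each factor in the knockdown (red) and with RX-5902 (blue); filled points are called at an edgeR adjusted p under 0.05. CEBPD, CEBPE, IRF8 and MYB lie on opposite sides of 0 in the 2 experiments, and SPI1 has changes of 0.37 and 0.36, which become 0.19 and 0.41 with a correction for gene length.

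CEBPA, the C/EBP gene most needed for granulocyte and monocyte progenitors, is a gene without introns (chr19:33299934-33302534, minus strand, GRCh38, the build of all coordinates here). It was at 237, 268 and 252 CPM in shControl and at 311, 268 and 284 CPM in shDDX5. Replicate 2 of shDDX5 lay at the level of the highest control library, so the groups touched. The log2 fold change was 0.19 (SE 0.09, edgeR adjusted p = 0.113, 3 libraries per group), with a 95% confidence interval from -0.02 to 0.40. Without shDDX5 replicate 1 the estimate was smaller, 0.13, and passed the test (edgeR adjusted p = 0.0217). The fit without that library called 10645 of 14916 genes. With RX-5902 CEBPA was at 197, 213 and 217 CPM against 263, 234 and 242 CPM in DMSO. All 3 treated libraries lay below all 3 controls, by a small margin. The log2 fold change was -0.24 (SE 0.04, edgeR adjusted p = 1.76e-05), and it did not pass when all 12 libraries were fitted together (-0.20, adjusted p = 0.0608). The change in the knockdown exceeded that with RX-5902 by 0.41 on the log2 scale (edgeR adjusted p = 0.00802, interval 0.16 to 0.65).

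CEBPB, an inducible C/EBP factor of macrophages and of stress granulopoiesis, is likewise a gene without introns (chr20:50190830-50192668, plus strand). It stood at 33.1, 35.1 and 33.1 CPM in shControl and at 111, 71.5 and 79.1 CPM in shDDX5. The groups were far apart, and the highest value was that of replicate 1. The fold change was 2.58 (log2 1.37, SE 0.16, edgeR adjusted p = 0.000174), and the log2 value was 1.16 without that library. With RX-5902 the gene was at 16.3, 19.6 and 18.4 CPM against 9.81, 11.2 and 9.43 CPM in DMSO. Again every treated library lay above every control, and the fold change was 1.78 (log2 0.84, SE 0.09, edgeR adjusted p = 3.08e-10). CEBPB was the one of the 4 C/EBP members called higher in both experiments. The difference between its changes, 0.52 on the log2 scale with an interval from 0.06 to 0.97, did not pass adjustment over all genes (edgeR adjusted p = 0.0528). It passed without shDDX5 replicate 1 (0.31, adjusted p = 0.0117), in a fit that called 9537 of 15794 genes. With a correction for gene length it was 0.30 and did not pass (edgeR adjusted p = 0.128), so the call depended on the fit. The control levels themselves lay 3.33-fold apart, 33.8 ± 1.15 CPM in shControl and 10.2 ± 0.952 CPM in DMSO (SD, n = 3), so the RX-5902 level stayed under the shControl level.

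CEBPD, a C/EBP factor of inflammatory signalling (chr8:47736913-47738164, minus strand, no introns), stood at 36.7, 40.4 and 42.2 CPM in shControl and at 153, 89.1 and 98.2 CPM in shDDX5. The lowest shDDX5 value was above every control, and replicate 1 was again the highest. CEBPD rose 2.85-fold (log2 1.51, SE 0.20, edgeR adjusted p = 0.000316), or by 1.23 on the log2 scale without replicate 1. With RX-5902 it was at 20.2, 23.1 and 25.0 CPM against 42.1, 41.5 and 39.2 CPM in DMSO. The treated libraries were all lower, and the 2 control groups of the study had nearly the same mean, 39.8 and 40.9 CPM. The log2 fold change was -0.85 (SE 0.06, edgeR adjusted p = 3.04e-13). The difference between the changes was 2.34 on the log2 scale (edgeR adjusted p = 1.8e-06), the largest of the 10 factors.

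CEBPE, known for the final steps of granulocyte maturation (chr14:23117036-23120256, minus strand), was one of the factors with the fewest counts. It was at 7.32, 6.36 and 7.10 CPM in shControl, which is 129 to 147 counts a library, and at 26.8, 15.5 and 17.4 CPM in shDDX5. The groups did not overlap, and replicate 1 was the highest, as for CEBPB and CEBPD. CEBPE rose 2.87-fold (log2 1.52, SE 0.21, edgeR adjusted p = 0.000421), or by 1.25 on the log2 scale without replicate 1. With RX-5902 it was at 7.14, 8.29 and 8.54 CPM against 11.0, 10.4 and 12.9 CPM in DMSO. Its fall was -0.52 (log2, SE 0.10, edgeR adjusted p = 2.91e-05), and the difference between the changes was 2.02 on the log2 scale (edgeR adjusted p = 1.77e-05). Replicate 1 of shDDX5 exceeded the mean of the other shDDX5 libraries by 0.71 for both CEBPD and CEBPE and by 0.55 for CEBPB (log2). These genes have 1252, 1764 and 1839 exonic bases, so all 3 fall in the short class that was high in that library. All 3 remained called without that library. With a correction for gene length their knockdown changes were 1.15 for CEBPB, 1.21 for CEBPD and 1.29 for CEBPE (log2). These were called too (edgeR adjusted p = 1.81e-05, 0.000106 and 0.000102). The part of this library's difference in their rise was not tested further.

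The make-up of C/EBP gene RNA was also set side by side in the groups. Levels can be compared between genes only per length, here as RPKM (CPM divided by the gene's exonic length in kilobases). Of the summed RPKM of CEBPA, CEBPB, CEBPD, CEBPE, CEBPG and CEBPZ, CEBPA held 47.3% ± 1.75 in shControl and 37.0% ± 3.20 in shDDX5 (SD, n = 3). CEBPB held 8.95% ± 0.188 in shControl and 15.6% ± 1.07 in shDDX5. CEBPD held 15.5% ± 0.821 and 29.5% ± 3.88, so CEBPA, CEBPD and CEBPB were nearer to each other in shDDX5 than in the control. The share of CEBPA ran from 45.7 to 49.1% over the shControl libraries and from 33.3 to 38.8% over the shDDX5 libraries, so the ranges did not meet. The 33.3% was that of shDDX5 replicate 1, and the other shDDX5 libraries were at 38.8%. CEBPD held 34.0% in replicate 1, against 26.8 and 27.8% in the others. With RX-5902 CEBPA held 49.9% ± 0.933 against 46.3% ± 1.98 in DMSO, CEBPD 11.3% ± 0.895 against 16.0% ± 0.669, and CEBPB 6.11% ± 0.403 against 2.71% ± 0.305. CEBPE held at most 4.23% of the sum in any library. The summed genes were taken by their C/EBP names, and DDIT3 was not among them. CEBPZ held 11.4% in shControl, 3.99% in shDDX5, 14.5% in DMSO and 10.8% with RX-5902. The other shares therefore depend on its inclusion, as does the higher CEBPA share with RX-5902, where CEBPA itself fell. These shares are a description, with no test. Counted in CPM, without the length term, CEBPA held 46.8% in shControl and 42.9% in shDDX5, a smaller gap, and CEBPD held 7.37% and 16.6%. The ratio of CEBPA to CEBPB (RPKM) was 5.28 ± 0.190 in shControl and 2.39 ± 0.355 in shDDX5, and 17.3 ± 2.26 in DMSO and 8.18 ± 0.445 with RX-5902. The ratio was lower in all 3 treated libraries in each experiment. Neither the shares nor this ratio carry a correction for the length effect that separates the shDDX5 libraries.

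**Figure D3:**
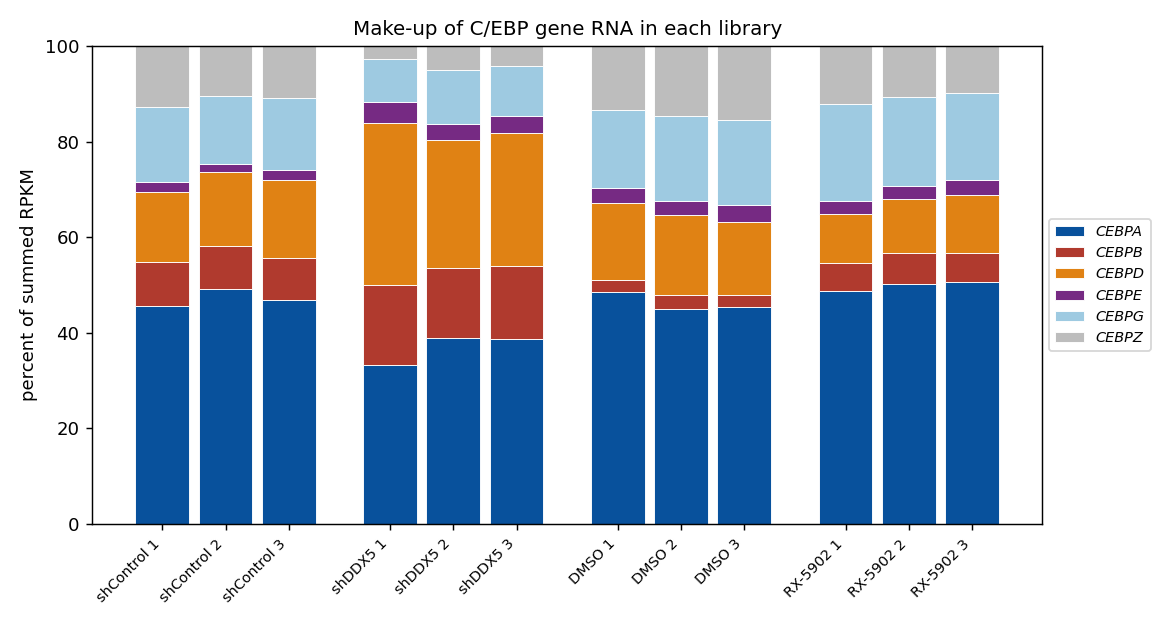
Percent of the summed RPKM of 6 genes with C/EBP names, CEBPZ included (vertical axis), in each of the 12 libraries, stacked by gene. The CEBPA share is between 45.7 and 49.1% in the shControl libraries and between 33.3 and 38.8% in the shDDX5 libraries, where CEBPD and CEBPB take larger shares. The 33.3% is that of shDDX5 replicate 1, and no correction was made for the length effect of that library.

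SPI1 encodes PU.1 (chr11:47354860-47378547, minus strand). It was at 126, 136 and 133 CPM in shControl and at 191, 152 and 168 CPM in shDDX5, with no overlap. The change was small, 1.29-fold (log2 0.37, SE 0.10, edgeR adjusted p = 0.0133), and it did not pass without shControl replicate 1 (0.33, adjusted p = 0.0712) or without shControl replicate 3 (0.37, adjusted p = 0.0584). With RX-5902 SPI1 was at 144, 158 and 159 CPM against 122, 125 and 113 CPM in DMSO. All treated libraries lay above all controls, and the rise was 1.28-fold (log2 0.36, SE 0.05, edgeR adjusted p = 1.98e-08). The difference between the changes was -0.002 on the log2 scale with a 95% interval from -0.27 to 0.26 (edgeR adjusted p = 0.993), so a difference of up to about that size is not resolved by these data. With a correction for gene length the SPI1 change was 0.19 in the knockdown (edgeR adjusted p = 0.0405) and 0.41 with RX-5902, and the difference was -0.19 (adjusted p = 0.0769). With CEBPB, SPI1 was one of the 2 factors that rose in both experiments.

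IRF8, the partner of PU.1 at composite ETS-IRF sites (chr16:85899116-85922606, plus strand), had the smallest spread between replicates of the 10 factors in 3 of the 4 groups, and large changes of opposite sign. It was at 666, 665 and 676 CPM in shControl and at 1273, 1234 and 1246 CPM in shDDX5. The groups lay far apart, and shDDX5 replicate 1 was within 0.04 (log2) of the others. IRF8 rose 1.87-fold (log2 0.90, SE 0.08, edgeR adjusted p = 4.37e-05). Of all genes tested in the knockdown, 25.4% had a larger change in either direction. With RX-5902 it was at 209, 226 and 218 CPM against 537, 544 and 541 CPM in DMSO. It fell 2.49-fold within 6 h (log2 -1.31, SE 0.04, edgeR adjusted p = 3.27e-24), and 4.35% of all genes tested with RX-5902 had a larger change in either direction. The difference between the changes was 2.20 on the log2 scale (edgeR adjusted p = 3.52e-10, interval 2.02 to 2.38). Relative to SPI1 (ratio of RPKM), IRF8 stood at 1.32 ± 0.0519 in shControl, 1.92 ± 0.186 in shDDX5, 1.17 ± 0.0622 in DMSO and 0.369 ± 0.0119 with RX-5902. In the RX-5902 libraries the level of IRF8 per length was thus below that of its partner, and in the other 3 groups above it.

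KLF4, a factor of monocyte differentiation (chr9:107484852-107490482, minus strand), was low in all groups. It was at 13.4, 14.3 and 15.9 CPM in shControl and at 21.9, 18.2 and 19.0 CPM in shDDX5, without overlap. The rise was 1.35-fold (log2 0.44, SE 0.11, edgeR adjusted p = 0.00901). With RX-5902 KLF4 was at 10.1, 9.30 and 10.4 CPM against 9.15, 10.4 and 9.07 CPM in DMSO. These ranges overlapped, and the log2 change of 0.06 had an interval from -0.13 to 0.25 (edgeR adjusted p = 0.605). Whether its changes differ between the experiments depended on the fit: the difference was 0.36 with an adjusted p of 0.0538 from edgeR. It was 0.29 with an adjusted p of 0.0474 without shDDX5 replicate 1, in a fit that called 9537 of 15794 genes.

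GFI1, a zinc-finger repressor (chr1:92473043-92486925, minus strand), had the smallest change of the 10 in the knockdown. It was at 157, 161 and 160.1 CPM in shControl and at 159, 142 and 149.6 CPM in shDDX5. The ranges overlapped because of shDDX5 replicate 1, and the log2 change of -0.09 (SE 0.08, edgeR adjusted p = 0.382) had an interval from -0.27 to 0.10. Without that library the change was -0.13 and passed the test (edgeR adjusted p = 0.0137), in the fit that called 10645 of 14916 genes. With RX-5902 GFI1 was at 119, 120.4 and 123 CPM against 135, 134 and 128 CPM in DMSO. The treated libraries were all lower, by 0.14 on the log2 scale (SE 0.04, edgeR adjusted p = 0.00418). That call was lost when all 12 libraries were fitted together (-0.10, adjusted p = 0.239). The difference between the changes was 0.03 with an interval from -0.16 to 0.23 (edgeR adjusted p = 0.791).

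RUNX1, a core factor of blood stem and progenitor cells (chr21:34787801-36004667, minus strand), fell in the knockdown. It was at 358, 365 and 367 CPM in shControl and at 226, 255 and 254 CPM in shDDX5, without overlap and lowest in replicate 1. The log2 fold change was -0.57 (SE 0.08, edgeR adjusted p = 0.000658), and -0.52 without that library. With a correction for gene length it was -0.34 and still called (edgeR adjusted p = 0.007). With RX-5902 RUNX1 was at 307, 309 and 315 CPM against 349.6, 338 and 333 CPM in DMSO. The fall was -0.13 on the log2 scale (SE 0.04, edgeR adjusted p = 0.00254) and -0.21 with the length correction, and it did not pass in the fit of all 12 libraries (-0.10, adjusted p = 0.223). The fall in the knockdown was larger by 0.46 on the log2 scale (edgeR adjusted p = 0.000449). RUNX1 has the longest exonic sequence of the 10, 15574 bases, and with that correction the difference was -0.14 and no longer called (edgeR adjusted p = 0.218). The ratio of SPI1 to RUNX1 (RPKM) was 2.77 ± 0.0788 in shControl and 5.35 ± 0.985 in shDDX5, and 2.69 ± 0.113 in DMSO and 3.77 ± 0.176 with RX-5902. It was higher in all 3 treated libraries in both experiments. These ratios carry no correction for the length effect that separates the shDDX5 libraries.

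MYB, the progenitor factor on which KMT2A-rearranged leukemias depend (chr6:135181308-135219173, plus strand), moved in opposite directions. It was at 319, 297 and 319 CPM in shControl and at 387, 437 and 422 CPM in shDDX5, without overlap and lowest of its group in replicate 1. The rise was 1.33-fold (log2 0.41, SE 0.09, edgeR adjusted p = 0.00375), and 0.46 on the log2 scale without that library. With RX-5902 MYB was at 304, 300.3 and 292 CPM against 522, 500.3 and 506 CPM in DMSO. It fell 1.71-fold within 6 h (log2 -0.77, SE 0.04, edgeR adjusted p = 2.28e-18). The difference between the changes was 1.17 on the log2 scale (edgeR adjusted p = 9.38e-08). The control groups differed in level, 312 ± 12.5 CPM in shControl and 509 ± 11.4 CPM in DMSO (SD, n = 3), so MYB with RX-5902 was near its level in shControl.

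In level per length CEBPA led in the control cells. In shControl the order of mean RPKM was CEBPA 97.0, IRF8 85.2, SPI1 64.5, MYB 56.7, CEBPD 31.8, GFI1 28.2, RUNX1 23.3, CEBPB 18.4, KLF4 3.97 and CEBPE 3.93. Only the last pair overlapped in range. In shDDX5 IRF8 led at 159 RPKM, followed by CEBPA at 111, CEBPD at 90.5, SPI1 at 83.4 and MYB at 75.5, and each neighbour from CEBPA to MYB overlapped with the next. Below them CEBPB stood at 47.3 RPKM, GFI1 at 26.6, RUNX1 at 15.7 and CEBPE at 11.3, of which the last pair overlapped, and KLF4 at 5.38. In DMSO, CEBPA at 94.6 and MYB at 92.7 RPKM overlapped at the top, and CEBPE at 6.49 and CEBPB at 5.52 overlapped near the bottom. With RX-5902 CEBPA at 80.3 and SPI1 at 75.2 RPKM overlapped at the top, followed by MYB at 54.4, while IRF8 had dropped to the fourth place at 27.7. GFI1 came next at 21.4 RPKM, RUNX1 at 19.9 and CEBPD at 18.2 overlapped, and CEBPB at 9.85, CEBPE at 4.53 and KLF4 at 2.71 closed the order.

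**Figure D4:**
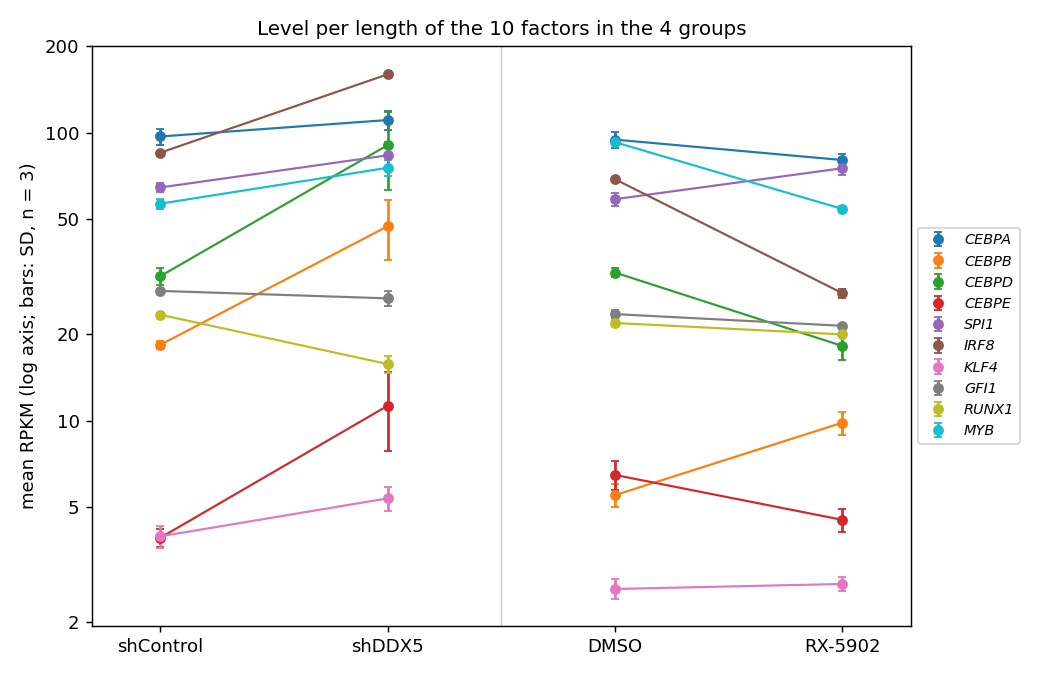
Mean RPKM of each factor on a log axis (vertical) in the 4 groups, with the SD over 3 libraries as bars; lines join the control and treated group of the same experiment. IRF8 goes from 85.2 to 159 RPKM in the knockdown and from 68.9 to 27.7 RPKM with RX-5902, and CEBPA stays between 80.3 and 111 RPKM.

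Between genes, exons can overlap on opposite strands, and the strand setting of the counting is not given in the sources used here. CEBPA shares 659 and 482 bases with a pair of antisense genes, ENSG00000267580 and ENSG00000267727, which had no counts in any library. CEBPB-AS1 shares 231 bases with CEBPB, ENSG00000289987 shares 357 with KLF4, and MYB-AS1 shares 103 with MYB. Their group means were at most 0.482 CPM, far under the levels of the factors they overlap. CEBPD, CEBPE, SPI1, IRF8, GFI1 and RUNX1 had no exon shared with another gene in the tables.

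Myeloid factors bind each other's promoters and enhancers, so the bases before their start sites were read for core motifs of the members themselves. RefSeq promoters (GRCh38.p14) were at hand for 8 of the 10 factors, all but CEBPD and SPI1. The 250 bases before each annotated start were searched on both strands for TTGCNNAA (C/EBP), GAGGAAG (PU.1), AACGG (MYB), TGTGGT (RUNX1) and GGAANNGAA (composite of an ETS and an IRF element). Of 35116 promoters of all genes, 9.05% hold the C/EBP motif, 11.2% that of PU.1, 16.5% that of MYB, 11.0% that of RUNX1 and 6.58% the composite, so single matches are common. CEBPE and GFI1 are shown because their upstream bases match the motifs of more than 1 kind, and CEBPA because it had no match. The CEBPE and GFI1 stretches lie inside the deposited span of their genes but outside the deposited exons. Matches stand in capitals, 5′ to 3′ on the gene's strand, ending at the base before the start.
CEBPE, chr14:23119256-23119505, minus strand: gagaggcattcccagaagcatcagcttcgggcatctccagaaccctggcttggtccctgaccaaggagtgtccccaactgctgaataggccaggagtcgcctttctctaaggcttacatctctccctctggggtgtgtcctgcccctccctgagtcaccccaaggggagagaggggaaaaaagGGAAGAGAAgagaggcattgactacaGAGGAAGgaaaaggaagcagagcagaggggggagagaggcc
GFI1, second of 3 starts, chr1:92486100-92486349, minus strand: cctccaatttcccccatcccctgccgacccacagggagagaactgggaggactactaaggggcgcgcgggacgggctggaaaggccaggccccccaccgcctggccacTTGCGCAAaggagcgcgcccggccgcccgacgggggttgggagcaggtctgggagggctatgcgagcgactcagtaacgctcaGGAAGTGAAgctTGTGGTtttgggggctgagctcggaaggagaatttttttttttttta
CEBPA, chr19:33302535-33302784, minus strand: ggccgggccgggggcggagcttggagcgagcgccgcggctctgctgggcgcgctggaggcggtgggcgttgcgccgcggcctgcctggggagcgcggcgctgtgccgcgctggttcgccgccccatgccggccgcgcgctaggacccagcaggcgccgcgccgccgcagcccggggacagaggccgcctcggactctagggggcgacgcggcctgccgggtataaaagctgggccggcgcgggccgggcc
In CEBPE the composite match GGAAGAGAA begins 67 bases before the start and the PU.1 match GAGGAAG 41 bases before it. In GFI1 the palindrome TTGCGCAA begins 142 bases before the start, the composite match GGAAGTGAA 59 and TGTGGT 47. The other starts of GFI1 had no match. The stretch before CEBPA is 81.2% G and C, against a median of 58% over all promoters. IRF8 had 1 match, TGTGGT, in a stretch inside the deposited span of the gene, with 141 of the 250 bases in its own deposited exons. The other IRF8 stretch lay wholly in those exons and had no match. RUNX1 had 2 matches to the composite, while CEBPB, KLF4 and MYB had none. These are matches of letters only, and the series holds no measurement of binding at them.

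The other genes of the same families followed no single direction in the knockdown, in which 56.7% of all genes were called, against 64.1% with RX-5902. These shares stand behind every count of a list below. Of 7 tested relatives and regulators of C/EBP, 2 rose and 1 fell in the knockdown (median log2 change 0.002). DDIT3 (CHOP), a C/EBP factor of stress that dimerizes with the others, rose 2.82-fold (edgeR adjusted p = 0.000111), TRIB1, an adaptor for the degradation of C/EBP alpha protein, rose by 0.80, and CEBPZ fell by 1.00. CEBPG, a short C/EBP partner, changed by 0.002 (log2, edgeR adjusted p = 0.99). With RX-5902 all 7 were called, 4 higher and 3 lower (median 0.33). By p-value they were led by DNMT3A, a DNA methyltransferase, which rose by 1.28, and TRIB3, which fell by 0.76, and CEBPZ fell by 0.77. DDIT3 and TRIB1 rose and CEBPZ fell in both. Of 14 tested relatives of PU.1, RUNX1, IRF8, KLF4 and MYB, 6 rose and 2 fell in the knockdown (median 0.14), and 12 rose and 2 fell with RX-5902 (median 0.56). MYBL2, the MYB relative of dividing cells, stood at 135 to 147 CPM in shControl and 25.9 to 28.8 CPM in shDDX5, a fall of 2.38 on the log2 scale (edgeR adjusted p = 3.44e-06), opposite in direction to MYB. RUNX2 rose by 1.11 (edgeR adjusted p = 6.29e-05), opposite to RUNX1. With RX-5902 the zinc-finger factors KLF6 and KLF13 rose by 1.47 and 0.97 (log2), while KLF4 did not pass. Without shDDX5 replicate 1 the counts of falls in the knockdown were 3 of 7 and 5 of 14, in a fit that called 10645 of 14916 genes.

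The lists of monocyte factors and of stem cell factors were counted in the same way, against 28.4% higher and 28.3% lower among all genes in the knockdown and 32.2% and 31.9% with RX-5902. Of 10 tested monocyte and macrophage factors, 6 rose and 2 fell, with a median log2 change of 0.47. EGR2, an early response factor of macrophages, went from 22.6 to 24.6 CPM in shControl to 70.6 to 70.8 CPM in shDDX5 (log2 1.58, SE 0.08, edgeR adjusted p = 4.26e-06), and NFIL3 rose by 1.06. With RX-5902, 5 of these 10 rose and 2 fell (median 0.09): BCL6, a repressor, rose by 2.74 (edgeR adjusted p = 2.57e-23) and BATF3, a dendritic cell factor, fell by 1.59. Of 12 tested stem and progenitor factors, 7 fell and 2 rose in the knockdown, with a median of -0.73. MEIS1, the cofactor of HOXA9 in KMT2A leukemia, fell by 2.73 (log2, SE 0.12, edgeR adjusted p = 3.63e-06) and BCL11A by 1.63. RUNX1 fell with these genes and MYB rose against them. With RX-5902 5 of the 12 rose and 4 fell, with a median of -0.06. MYC fell by 2.02 (edgeR adjusted p = 8.73e-28) and ZNF521 rose by 0.47. Of 12 factors of other blood lineages, 5 passed the filter in the knockdown and 3 with RX-5902. GATA1, KLF1, EBF1 and TCF7 were not among them in either experiment. In the knockdown, ZFPM1 rose and TCF3 and NFE2 fell, and with RX-5902 NFE2 fell and TCF3 and ZFPM1 rose (medians 0.22 and 0.18).

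The granule genes that C/EBP factors, PU.1 and MYB are known to activate moved in opposite directions in the experiments. In the knockdown 5 of 6 rose (MPO, ELANE, PRTN3, AZU1 and LYZ) and CTSG did not pass (0.13, edgeR adjusted p = 0.53), with a median log2 change of 1.39. With RX-5902 all 6 fell, with a median of -0.78. PRTN3, the serine protease proteinase 3, was at 392 to 435 CPM in shControl and 1623 to 2609 CPM in shDDX5 (log2 2.28, SE 0.18, edgeR adjusted p = 2.54e-05). With RX-5902 it was at 274 to 299.7 CPM against 759.6 to 818 CPM in DMSO (log2 -1.45, SE 0.04, edgeR adjusted p = 1.2e-24). LYZ, lysozyme, had 3411 CPM in shControl and 12909 CPM in shDDX5 on average, and 377 CPM in DMSO. ELANE, neutrophil elastase, fell by 0.94 with RX-5902 (edgeR adjusted p = 1.14e-18). Without shDDX5 replicate 1 the knockdown count was again 5 of 6. The log2 changes without and with that library were 1.858 and 2.115 for ELANE, 2.045 and 2.279 for PRTN3, and 0.395 and 0.59 for AZU1. They were 1.87 and 1.92 for LYZ, 0.885 and 0.863 for MPO, and -0.093 and 0.13 for CTSG. CEBPD, CEBPE, IRF8 and MYB have the same pair of directions as MPO, ELANE, PRTN3, AZU1 and LYZ, and any relation between the factors and these genes was not tested.

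A list of 9 late granule genes that need C/EBP epsilon held 2 genes that passed the filter in the knockdown, BPI and MMP9. BPI, whose protein is known from azurophil (primary) granules, was at 0.299 to 0.739 CPM in shControl and at 7.02 to 7.99 CPM in shDDX5, a rise of 4.02 on the log2 scale (SE 0.26, edgeR adjusted p = 1.15e-05), and MMP9, a gelatinase, fell by 1.92. With RX-5902, MMP9 alone passed and rose by 1.19. LTF, LCN2, CEACAM8 and MMP8 did not pass the filter in either experiment. Of 10 tested receptor and adhesion genes of C/EBP and PU.1, 5 rose and 3 fell in the knockdown (median 0.29), and of 9 tested with RX-5902 4 rose and 3 fell (median 0.02). ITGAM (CD11b) rose by 1.27 and 1.26 in the 2 experiments, the same order of change in each, from 42.1 and 6.37 CPM in the controls. CD14 fell by 1.55 in the knockdown, from 6.92 to 2.37 CPM, and ITGAX (CD11c) rose by 1.82 with RX-5902.

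The growth genes known as targets of MYB were split in both experiments. Of the 6 tested, MYB included, 3 rose and 3 fell in the knockdown (median log2 change -0.23), and 2 rose and 3 fell with RX-5902 (median -0.45). MYB itself is among the rises in the knockdown (0.41) and among the falls with RX-5902 (-0.77). The counts and medians thus include its own change and are not a separate reading of its targets. With the knockdown, in which MYB rose, BCL2 fell by 0.87, MYC by 1.12 and CCNB1, a mitotic cyclin, by 2.12 (log2, edgeR adjusted p = 0.0003, 1.89e-05 and 3.85e-06). CDK6 and ADA rose, by 0.58 and 0.73. With RX-5902, in which MYB fell, BCL2 fell by 0.96 and MYC by 2.02, while CDK6 rose by 0.27 and CCNB1 by 0.28. The plot of target genes shows 3 of these lists in both experiments.

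**Figure D5:**
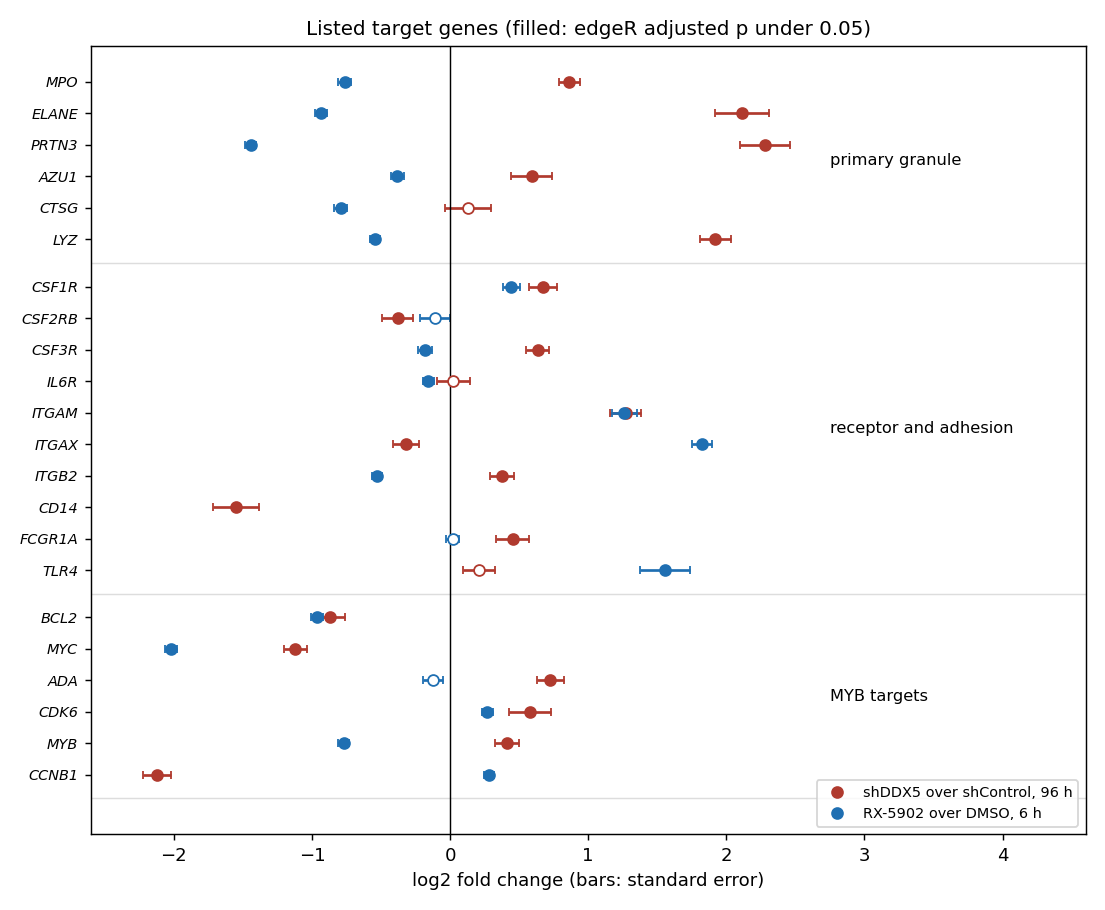
Log2 fold change with its standard error (horizontal axis) of listed target genes in the knockdown (red) and with RX-5902 (blue), grouped by list; filled points are called at an edgeR adjusted p under 0.05. The primary granule genes are to the right of 0 in the knockdown, where CTSG is not called, and to the left with RX-5902. The receptor and MYB lists are mixed.

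Each factor's pattern over the 12 libraries, as log2 CPM relative to the mean control of its experiment, was set beside those of 10440 protein-coding genes by root mean square distance. The closest gene was SHMT2 for CEBPA (0.039), SOCS1 for CEBPB (0.093), MANF for CEBPD (0.090) and GPR160 for CEBPE (0.128). It was NOP53 for SPI1 (0.038), STON1 for IRF8 (0.062), PSMD4 for KLF4 (0.069), TPD52L2 for GFI1 (0.040), CBX2 for RUNX1 (0.047) and ISG20L2 for MYB (0.051). Among the 10 factors, the closest pairs were CEBPA with GFI1 at 0.156, SPI1 with KLF4 at 0.169 and CEBPD with CEBPE at 0.207. All patterns come from the same 12 libraries, shDDX5 replicate 1 included, and no function is implied by likeness.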

How the data were processed

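RNA-seq libraries of MOLM-14 cells were analysed from raw read counts per gene that the authors deposited in 1 table per experiment, with the length of each gene's merged exons in a column of its own. Per the submitters' processing notes, the build was GRCh38.p13 and the tools included STAR 2.7.9a, Subread 2.0.3 with featureCounts, Trim Galore 0.6.7, DESeq2 1.46.0, Picard 2.8.0 and R 4.4.2. The roles of these tools, the annotation release and the strand setting are not given in the sources used here. The line of 1 gene, wrapped in each table, was rejoined. Of the identifiers, 59984 matched a symbol with their version, 1819 without it, and 103 had none.

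The 6 libraries of each experiment were fitted separately in edgeR 4.0.16 (R 4.3.3): filterByExpr (minimum count 10, minimum total 15), TMM scaling, and the quasi-likelihood F test, two-sided, with Benjamini-Hochberg adjustment at 0.05 over all genes tested. The difference between the changes was tested in 1 fit of all 12 libraries. Standard errors were derived from F, and intervals are at 95%. The code was tested on simulated counts. CPM and RPKM are TMM-scaled within each experiment, with means ± SD over 3 libraries. The p-values measure the spread between these replicates only. Total counts per library were 17603589 to 20367575. CEBPE had 129 to 472 counts in a library and KLF4 181 to 385.

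The 10 factors and all gene lists were chosen with earlier results of these data known. Named genes were the factors, DDX5, up to 2 called genes with the smallest p from each list and experiment, the nearest gene in pattern to each factor, and genes whose exons overlap a factor. Other list genes were named after their values were seen, to account for small counts. Alternatives were DESeq2 size factors, the DESeq2 1.42.0 test, no filter, a filter at 1 CPM in 3 libraries, voom with sample weights (limma 3.58.1), a gene length correction, a replicate block, both together, 1 fit of all 12 libraries, and leaving out each library. A comparison of C/EBP proteins by sequence was planned and not made. One of the gene lists is not reported here.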

Additional observations from a re-analysis of the deposited data

Results flagged for a closer look

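For 6 of the 10 factors the change in the knockdown and the change with RX-5902 differed by edgeR's test of that difference over all 12 libraries, which called 52.7% of all genes tested. The knockdown change minus the RX-5902 change, on the log2 scale, was 2.34 for CEBPD (adjusted p = 1.8e-06), 2.20 for IRF8 (adjusted p = 3.52e-10) and 2.02 for CEBPE (adjusted p = 1.77e-05). It was 1.17 for MYB (adjusted p = 9.38e-08), 0.41 for CEBPA (adjusted p = 0.00802) and -0.46 for RUNX1 (adjusted p = 0.000449). With the correction for gene length the RUNX1 value was -0.14 and not called (adjusted p = 0.218). CEBPD, CEBPE, IRF8 and MYB rose in 3 of 3 shDDX5 libraries and fell in 3 of 3 RX-5902 libraries relative to every control library of their experiment. The experiments differ in agent, in time (96 h and 6 h) and in infection with lentivirus, and these cannot be told apart.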

How the results depend on the processing

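No factor changed its direction while called, in any comparison or setting. Of the 150 results of single factors in the knockdown, 3 lost and 5 gained their call. With RX-5902 3 of 150 lost it, all in 1 fit of the 12 libraries, where 4 factors were called lower. That fit called 6816 of 15386 genes for RX-5902, against 8943 of 13941 in the fit of its own libraries. For the difference, 2 of 200 lost and 17 gained their call, the gains being those of CEBPB and KLF4. The count of factors called lower in the knockdown was 2 with voom and sample weights and 2 without shDDX5 replicate 1. Calls over all genes were also more common there. They were 10600 of 14463 with voom and 10645 of 14916 without that library, against 8204 of 14463 in the edgeR fit of all 6 libraries. For the difference the count of factors called lower was 0 with the length correction, and 0 with that correction and the replicate block. RUNX1 was lost in both (-0.14, edgeR adjusted p = 0.218 and 0.293). SPI1 in the knockdown was lost with both corrections together (0.19, adjusted p = 0.0867). Leaving out 1 library gave 6 to 8 factors called higher and 1 to 2 lower in the knockdown, 2 and 7 with RX-5902, and 5 to 7 higher and 1 lower for the difference. In CPM in place of RPKM, the share of CEBPA among the C/EBP genes was 46.8% in shControl, 42.9% in shDDX5, 44.2% in DMSO and 47.1% with RX-5902. Same-numbered control and treated libraries did not deviate together (correlations -0.055, -0.118 and 0.054 in the knockdown, and -0.087, 0.019 and -0.109 with RX-5902). Libraries with different numbers reached 0.137 in the RX-5902 experiment, so these values cannot settle whether the samples were paired. With the replicate block alone, 7 factors were called higher and 1 lower in the knockdown, 2 and 7 with RX-5902, and 5 and 1 for the difference.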
